A study of Mus musculus with 30 samples.

Results

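The genes described here make sterols and fatty acids or control that synthesis through the sterol regulatory element-binding proteins (SREBPs). They are a fixed list of 40 mouse genes, picked by name for their place in these pathways. All 40 were in the authors' count table of 12016 genes, and they are described as 5 regulators, a sterol arm of 19 genes and a fatty acid arm of 16 genes. The cells were 3T3-L1 preadipocytes, an established mouse fibroblast line that can be turned into adipocytes. They were reverse-transfected, while still sub-confluent, on day −3 of the differentiation schedule with 50 nM of a non-targeting (scramble) siRNA or of a pool of siRNAs against Kdm5c, which encodes a histone demethylase. RNA was collected 24, 48 and 72 h later, on days −2, −1 and 0, which gives 6 groups of 5 libraries with no untransfected group. Both kinds of cells carried the transfection reagent and came from 1 cell line, and nothing in the sample descriptions says that the libraries of a group came from separate cultures, so the p-values measure only the spread between these libraries.

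SREBPs are transcription factors held in the endoplasmic reticulum as precursors bound to SCAP. When membrane cholesterol is low, SCAP escorts them to the Golgi, where they are cut, and the released part enters the nucleus and switches on genes of sterol and fatty acid synthesis; INSIG proteins hold the complex back when sterols are plentiful. SREBP-2, from Srebf2, acts mostly on sterol genes and SREBP-1, from Srebf1, mostly on fatty acid genes. In preadipocytes these pathways supply membranes for growing cells, and during differentiation they also supply the fat that is stored.

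Promoter sequences are shown for 5 members because the sterol genes moved together, and SREBPs are known to act at sterol regulatory elements beside CCAAT boxes, which bind the factor NF-Y. Mvd and Msmo1 had the largest siRNA effects of the sterol arm on day −1 and Acss2 that of the fatty acid arm. Among the members with a promoter window to search, Hmgcs1 was the only 1 with a match to the classical sterol regulatory element. Acat2 was the only sterol gene with a window and no CCAAT box. All 5 were picked after their values were seen. Each sequence is the 250 bases that end just before a transcription start in RefSeq (GRCm38.p6), 5′ to 3′ in the direction of the gene. Capitals mark a CCAAT box on either strand (CCAAT or ATTGG) or, in Hmgcs1, also the sterol regulatory element TCACNCCAC.
Msmo1, chr8:64733579-64733828, minus strand: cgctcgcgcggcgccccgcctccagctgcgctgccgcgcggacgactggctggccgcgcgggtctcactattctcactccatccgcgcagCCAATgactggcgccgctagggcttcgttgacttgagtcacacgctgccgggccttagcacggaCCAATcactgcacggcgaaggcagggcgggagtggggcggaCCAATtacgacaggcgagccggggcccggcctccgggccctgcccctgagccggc
Mvd, chr8:122443423-122443672, minus strand: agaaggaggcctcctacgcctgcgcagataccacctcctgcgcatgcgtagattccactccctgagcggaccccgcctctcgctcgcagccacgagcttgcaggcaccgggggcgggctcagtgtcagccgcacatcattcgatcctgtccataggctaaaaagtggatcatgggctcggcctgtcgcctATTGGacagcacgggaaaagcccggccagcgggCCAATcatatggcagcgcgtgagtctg
Acss2, chr2:155517793-155518042, plus strand: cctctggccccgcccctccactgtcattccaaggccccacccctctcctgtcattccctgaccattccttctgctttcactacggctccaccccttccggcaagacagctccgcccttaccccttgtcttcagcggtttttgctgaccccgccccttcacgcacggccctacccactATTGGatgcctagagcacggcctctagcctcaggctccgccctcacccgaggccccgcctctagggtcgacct
Hmgcs1, chr13:119690101-119690350, plus strand: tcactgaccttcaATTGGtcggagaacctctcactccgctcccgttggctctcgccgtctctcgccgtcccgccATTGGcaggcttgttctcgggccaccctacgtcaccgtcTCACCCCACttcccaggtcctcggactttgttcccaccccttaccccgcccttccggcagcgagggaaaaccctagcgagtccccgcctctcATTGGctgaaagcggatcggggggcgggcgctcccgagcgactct
Acat2, chr17:12960726-12960975, minus strand: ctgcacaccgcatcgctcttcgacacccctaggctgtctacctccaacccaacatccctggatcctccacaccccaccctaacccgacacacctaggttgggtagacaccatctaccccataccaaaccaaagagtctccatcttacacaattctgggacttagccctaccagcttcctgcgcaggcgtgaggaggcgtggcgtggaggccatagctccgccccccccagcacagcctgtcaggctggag

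Msmo1 held 3 CCAAT boxes, which began 160, 96 and 55 bases before the start, and Mvd held 2. Hmgcs1 held its sterol regulatory element, which began 137 bases before the start, between CCAAT boxes. RefSeq windows of 300 bases (250 before to 50 after the start) were at hand for 33 of the 40 members. Fdft1, Fdps, Sqle, Stard4, Scd1, Scd2 and Fads1 had no window and were not searched. CCAAT boxes on either strand were present in 14 of 15 sterol genes, 9 of 13 fatty acid genes and 4 of 5 regulators with a window. Counted by window, 77.8% of 18 sterol windows and 60.0% of 15 fatty acid windows held one, against 37.4% of all 32851 windows and 38.2% of the windows of genes in the count table. The element TCACNCCAC, searched on both strands, was found in 1.2% of all windows and, among the members with a window, in Hmgcs1 only. The GC box GGGCGG was in 83.3% of sterol and 60.0% of fatty acid windows, against 35.7% of all windows and 63.8% of those of genes in the count table. These matches are letters in a window and say nothing of which factor was bound in these cells.

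The libraries held 25217905 to 33725717 reads. Kdm5c RNA itself fell at every time: its level was 157 ± 1.75 CPM (the authors' unit, a gene's count scaled to the library total; mean ± SD, n = 5) with scramble and 25.5 ± 1.29 CPM with Kdm5c siRNA on day −2, 189 ± 2.90 and 35.6 ± 3.57 CPM on day −1, and 212 ± 4.84 and 53.3 ± 2.37 CPM on day 0. Of 7 preadipocyte or fibroblast markers 6 averaged at least 1 CPM. With Kdm5c siRNA 2 were called higher on day −2, 2 higher and 3 lower on day −1, and 1 higher and 3 lower on day 0. Over all genes 11.2% were called higher and 11.8% lower on day −2, 18.8 and 16.8% on day −1, and 19.2 and 15.7% on day 0. Ly6a was higher with Kdm5c siRNA on all 3 days (0.34, 0.54 and 0.64 on the log2 scale), and Dlk1 was lower on days −1 and 0 (−0.18 and −0.20). The summed level of the 7 was 12621 to 13226 CPM with scramble and 13551 to 14368 CPM with Kdm5c siRNA on day −2, 14322 to 16079 and 15025 to 16115 CPM on day −1, and 20239 to 22256 and 18562 to 20846 CPM on day 0. Of 7 mature adipocyte markers 6 stayed below 1 CPM in every library and Cfd was at 0 in all. Fabp4 was the exception, and was called higher with Kdm5c siRNA on day 0 only (0.30 on the log2 scale, edgeR adjusted p = 0.00339). The summed level of the 7 adipocyte markers was 10.3 to 12.7 CPM with scramble and 9.73 to 12.96 CPM with Kdm5c siRNA on day −2, 21.3 to 27.9 and 22.9 to 25.5 CPM on day −1, and 21.97 to 28.8 and 28.7 to 35.5 CPM on day 0. Of 3 immune markers Adgre1 was at 0 in all libraries and Cd68 was the only one to reach 1 CPM. On day 0 Cd68 was higher with Kdm5c siRNA, at 1.74 ± 0.194 CPM with scramble and 3.256 ± 0.691 CPM with Kdm5c siRNA (0.91 on the log2 scale, edgeR adjusted p = 5.11e-07); the 3 endothelial markers stayed below 1 CPM in every library. The part of the marker levels in the results below was not tested.

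Within the fatty acid arm Scd2, a stearoyl-CoA desaturase, had the highest level per length, at 328 ± 12.95 CPM per kb of exon (n = 5) in scramble cells on day −1. Next came the desaturase Fads2 (112 ± 4.88 CPM per kb) and Acly, the enzyme that makes cytosolic acetyl-CoA from citrate (106 ± 3.91 CPM per kb), whose means lay less than the sum of their SDs apart. Hmgcs1, for the synthase that feeds the mevalonate pathway, was the highest of the sterol arm (83.7 ± 3.37 CPM per kb). Acss2, which makes acetyl-CoA from acetate, and Acacb, the mitochondria-associated acetyl-CoA carboxylase, were the lowest of all 40 (1.94 ± 0.284 and 1.63 ± 0.121 CPM per kb). Among the regulators Srebf2 (58.2 ± 1.36 CPM per kb) and Insig1 (51.3 ± 4.76 CPM per kb) were above Scap (14.6 ± 0.310 CPM per kb), Insig2 (9.13 ± 0.178 CPM per kb) and Srebf1 (7.32 ± 0.238 CPM per kb). How reads shared by near-identical copies were counted is not given in the sources used here, so the split between Scd1 and Scd2 and between Acat2 and its neighbour Acat3 is uncertain.

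The summed level of the sterol arm was highest on day −1 in scramble cells and much alike on days −1 and 0 in Kdm5c siRNA cells. It was 1719, 1700.1, 1693, 1608 and 1582 CPM in the 5 scramble libraries of day −2, 2669, 2678, 2661, 2488 and 2495 CPM on day −1, and 2377, 2300.2, 2393, 2279.9 and 2304 CPM on day 0. With Kdm5c siRNA it was 1520.4, 1432, 1538, 1539.5 and 1535 CPM on day −2, 2226, 2172, 2325, 2266 and 2183 CPM on day −1, and 2207, 2169, 2195, 2252 and 2249 CPM on day 0. The sum was lower with Kdm5c siRNA on every day, and the libraries of the 2 siRNAs did not overlap on any. No member held more than 16% of this sum.

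The scramble libraries of days −2 and −1 each fell into a higher set, replicates 1, 2 and 3, and a lower set, replicates 4 and 5, in the summed level of both arms, and no sample description names a batch that would part them. The counts of called members that use these libraries were therefore run without each set, an alternative chosen after the data were seen. Because the sets were parted by the levels of these same arms, leaving out the higher set lowers the scramble mean of an arm. Leaving out the lower set raises it, and either leaves fewer libraries to test. The direction of the change in the summed effect was thus set in advance. Calls that a set ends are named with the results.

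The summed fatty acid arm was lower with Kdm5c siRNA as well. Its mean was 3716 ± 118 CPM (SD, n = 5) with scramble and 3497 ± 102 CPM with Kdm5c siRNA on day −2, 5086 ± 164 and 4676 ± 128 CPM on day −1, and 4901 ± 62.8 and 4710.4 ± 21.3 CPM on day 0. Scd2 alone made up 27.9 to 41.4% of this sum. On day −2 the ranges overlapped, at 3535 to 3810.1 CPM with scramble and 3324 to 3582 CPM with Kdm5c siRNA. Day −1 ran from 4859 to 5220.3 against 4553 to 4847 CPM, with no overlap, and day 0 from 4843 to 5005 against 4676 to 4732 CPM, again with none.

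**Figure D1:**
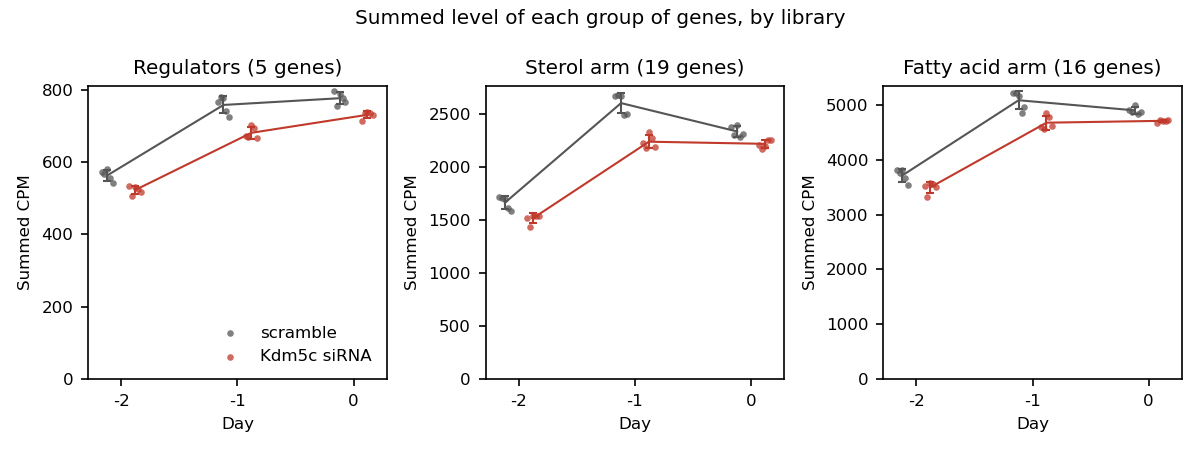
Summed CPM of the 5 regulators, 19 sterol genes and 16 fatty acid genes (y axis) by day (x axis); points are libraries, lines join group means and bars are SD over 5 libraries, grey for scramble and red for Kdm5c siRNA. The sterol sum of scramble cells peaks on day −1 at 2488 to 2678 CPM, while that of Kdm5c siRNA cells is 2172 to 2325 CPM on day −1 and 2169 to 2252 CPM on day 0.

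The scramble libraries alone show how these genes moved from day −2 to day 0. Time after transfection, time in culture and cell density cannot be told apart in this design. From day −2 to day −1 all 19 sterol genes rose, by 0.27 to 1.53 on the log2 scale (median 0.60, against 0 over all genes tested), and for each of the 19 the 5 later libraries were all above the 5 earlier ones. The test was edgeR's quasi-likelihood test with Benjamini-Hochberg adjustment over the 12016 genes, and a gene is called when its adjusted p is under 0.05. Over all genes 78.7% were called in this comparison, 39.4% as higher and 39.3% as lower; groups did not overlap for 39.1% in the higher and 27.3% in the lower direction. Tm7sf2, a sterol reductase, rose most (5.48 ± 0.680 to 16.6 ± 2.11 CPM; 1.53 on the log2 scale with an SE of 0.084, adjusted p = 8.13e-19). Mvd, whose product makes isopentenyl diphosphate, rose from 39.9 ± 2.75 to 83.3 ± 3.84 CPM, and by 0.99 on the log2 scale in the fit. Fold changes come from counts that the fit scaled further. CPM and overlaps of groups use the deposited levels, so the scales differ. Without either set of day −2 or of day −1 libraries all 19 sterol genes were called higher, with medians of 0.53 to 0.66.

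The fatty acid arm was mixed in the same step: 11 genes rose, 2 fell and 3 were not called. Acss2 rose most of all 40 members: its level went from 5.58 ± 0.448 to 19.7 ± 2.89 CPM (1.75 on the log2 scale with an SE of 0.089, adjusted p = 9.03e-19). Acacb rose by 1.05, Scd2 by 0.72 and Scd1 by 0.69 on the log2 scale. Fasn, for fatty acid synthase, fell by 0.17 and Me1, for the malic enzyme that supplies NADPH, by 0.13. Of the regulators, Insig1 (0.67), Insig2 (0.40) and Srebf2 (0.39) rose, whereas Srebf1 (−0.077, adjusted p = 0.0936) and Scap (0.017, adjusted p = 0.481) were not called.

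From day −1 to day 0 the sterol arm turned: 11 genes fell, 1 rose and 7 were not called, with a median log2 fold change of −0.13 (−0.006 over all genes). Over all genes 74.4% were called, 37.7% as lower and 36.6% as higher, and groups did not overlap for 34.1% (lower) and 26.6% (higher). The falls ran from −0.11 for Mvd to −0.55 for Idi1, the isopentenyl diphosphate isomerase gene (25.5 ± 2.27 to 17.04 ± 1.54 CPM). Acat2, for the cytosolic thiolase at the head of the mevalonate route, fell by 0.47 and Mvk, for mevalonate kinase, by 0.37; Tm7sf2 was the 1 that rose (0.28). In the fatty acid arm 7 fell, 6 rose and 3 were not called. Elovl6, an elongase of saturated chains, fell by 0.54, Fasn by 0.41 and Acly by 0.39, while Acacb rose by 0.75 and Scd2 by 0.20. Without the scramble day −1 replicates 1, 2 and 3 the medians of this step were −0.040 (sterol) and 0.054 (fatty acid), and the counts of called genes were 11 (8 lower, 3 higher) and 13; the medians were −0.16 and −0.053 and the counts 14 and 11 without replicates 4 and 5. The first of these settings ended the calls of Mvd (−0.040, adjusted p = 0.478), Lss, Fdps and Fads2, and the second those of Elovl1 (0.064, adjusted p = 0.0571) and Elovl5. The fall of Fdps was lost when any 1 of 5 of the 10 libraries was left out (adjusted p up to 0.167), and the rise of Elovl5 for 4 of them (adjusted p up to 0.0966).

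**Figure D2:**
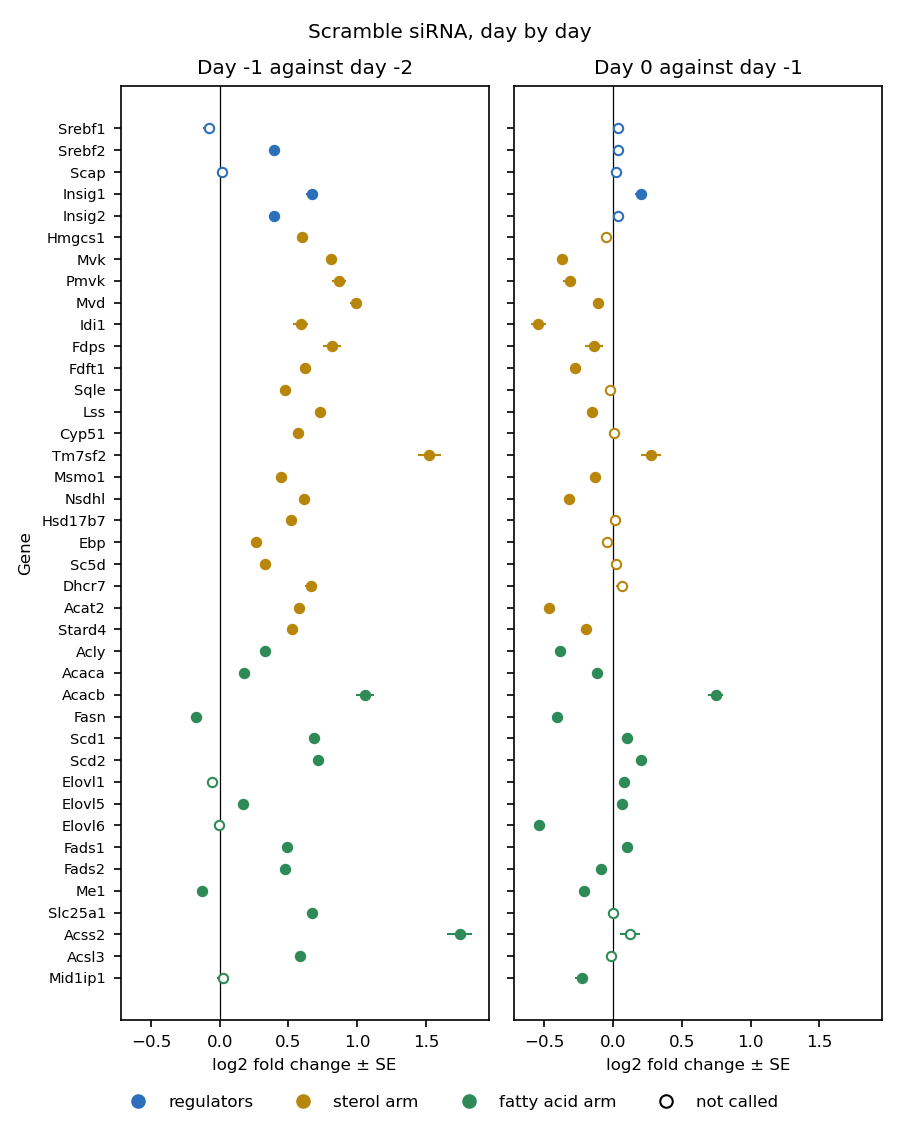
Log2 fold change ± SE (x axis) of each of the 40 genes (y axis) in scramble cells, day −1 against day −2 at left and day 0 against day −1 at right; filled points are called at an adjusted p under 0.05 and open points are not. All 19 sterol genes lie right of 0 at left, between 0.27 and 1.53, and 14 of the 19 lie left of 0 at right.

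The regulators come first in the comparison of the siRNAs. Of the 5, only Srebf2 fell on all 3 days, while Srebf1 was not called on any. On day −2, 1 of the 5 fell and none rose. The background on that day was 23% of all genes called, 11.8% as lower and 11.2% as higher, with groups that did not overlap for 8.75% (lower) and 7.37% (higher). On day −1, 3 fell and none rose, beside 35.5% of all genes called (16.8% lower, 18.8% higher; no overlap for 11% and 11.2%). On day 0, 1 fell and none rose, beside 35.0% of all genes called (15.7% lower, 19.2% higher; no overlap for 10.7% and 11%).

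Srebf2 (ENSMUSG00000022463, chr15:82147181-82205379) encodes SREBP-2. On day −2 Srebf2 was at 304, 307, 312, 299 and 289 CPM with scramble and at 277, 264, 276, 278 and 269 CPM with Kdm5c siRNA. Day −1 gave 419.97, 426, 426, 414 and 403 CPM with scramble and 363, 360.3, 378, 377 and 359.8 CPM with Kdm5c siRNA. Day 0 gave 429, 402, 429, 415 and 413 and 376, 387, 383, 394 and 387 CPM. Every Kdm5c siRNA library was below every scramble library of its day. For Srebf2 the log2 fold changes were −0.14 (standard error 0.022, adjusted p = 2.79e-06), −0.18 (adjusted p = 6.3e-09) and −0.11 (adjusted p = 5.67e-05). Without scramble replicates 1, 2 and 3 of the day the value was −0.11 on day −2 (adjusted p = 0.0118) and −0.15 on day −1 (adjusted p = 7.65e-05).

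Insig1 (ENSMUSG00000045294, chr5:28071363-28078662), whose protein retains SCAP in the endoplasmic reticulum, was lower in mean on all 3 days and called on day −1 only. On day −2 Insig1 was at 96.2, 89.6, 103, 95.98 and 88.2 CPM with scramble and at 89.2, 82.7, 91.99, 90.9 and 88.5 CPM with Kdm5c siRNA, and the groups overlapped (−0.090 on the log2 scale with an SE of 0.048, adjusted p = 0.188). On day −1 the values were 169, 173, 166, 144 and 142 CPM with scramble and 133, 135, 147, 139 and 132 CPM with Kdm5c siRNA (−0.21 on the log2 scale with an SE of 0.046, adjusted p = 0.000681). Replicates 1, 2 and 3 of scramble were above all Kdm5c siRNA libraries, and replicates 4 and 5 lay within their range; without those 3 the log2 fold change was −0.058 (adjusted p = 0.341). On day 0 Insig1 was at 182, 174, 179, 178 and 177 CPM with scramble and at 163, 166, 168, 169 and 169 CPM with Kdm5c siRNA, with no overlap and no call (−0.090 on the log2 scale with an SE of 0.045, adjusted p = 0.131).

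Scap (ENSMUSG00000032485, chr9:110333288-110384950), the escort of the precursors, was called lower on day −1 only, by a small step. On day −1 Scap was at 105, 109, 111, 111 and 108 CPM with scramble and at 104, 104, 104, 105 and 103 CPM with Kdm5c siRNA, with no overlap (−0.063 on the log2 scale with an SE of 0.022, adjusted p = 0.0243). That call was lost without scramble day −1 replicate 3 (adjusted p = 0.0659) or replicate 4 (adjusted p = 0.0615), and without replicates 1, 2 and 3 (adjusted p = 0.0772) or replicates 4 and 5 (adjusted p = 0.087). On day −2 its values were 104, 104, 102, 100.03 and 101 CPM with scramble and 102, 97.2, 97.05, 98.3 and 99.3 CPM with Kdm5c siRNA. On day 0 they were 112, 105, 107, 109 and 105 and 104, 106, 107, 104 and 102 CPM, and both days overlapped.

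Srebf1 (ENSMUSG00000020538, chr11:60199089-60222581), which encodes SREBP-1, overlapped between the siRNAs on every day. Scramble libraries held 43.3, 42.2, 41.4, 40.1 and 39.7 CPM on day −2, 40.7, 39.6, 42.2, 42.97 and 40.7 CPM on day −1 and 40.4, 40.5, 41.5, 43.8 and 40.4 CPM on day 0. Kdm5c siRNA libraries held 42.4, 38.8, 44.6, 38.03 and 38.4 CPM, 40.7, 39.2, 41.03, 43.2 and 40.2 CPM and 40.5, 45.3, 45.7, 40.2 and 40.5 CPM. No day set the siRNAs apart, with log2 fold changes of −0.028, −0.011 and 0.041 (SE 0.042, adjusted p = 0.688, 0.863 and 0.486). The count is for the whole gene and does not part the SREBP-1a and SREBP-1c transcripts.

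Insig2 (ENSMUSG00000003721, chr1:121304353-121332589), a second retention protein, was not called on any day either. Its scramble libraries held 24.5, 23.5, 23.6, 20.6 and 22.04 CPM on day −2, 31.2, 32.5, 31.9, 30.98 and 32.0023 CPM on day −1 and 31.8, 32.5, 31.5, 32.5 and 30.5 CPM on day 0. Its Kdm5c siRNA libraries held 22.5, 22.2, 21.5, 22.1 and 22.2 CPM, 32.1, 31.4, 32.2, 30.5 and 31.4 CPM and 29.0015, 31.99, 32.5, 30.2 and 31.4 CPM. The groups overlapped on all 3 days, with log2 fold changes between −0.047 and −0.007.

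In the sterol arm 12 of 19 genes fell on day −2, all 19 on day −1 and 7 on day 0, and none rose on any day. The median log2 fold change was −0.15 on day −2, −0.26 on day −1 and −0.038 on day 0, beside 0, 0.002 and 0.003 over all genes tested. Groups did not overlap, with Kdm5c siRNA lower, for 8, 13 and 6 of the 19. All genes were called lower at shares of 11.8, 16.8 and 15.7% on these days, and did not overlap at 8.75, 11 and 10.7%.

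These counts changed with the set of scramble libraries left out, and the sets were parted by the arms' own levels. On day −2, 4 of 19 were called without scramble replicates 1, 2 and 3, all lower, with a median of −0.085, and 12 without replicates 4 and 5, with a median of −0.19. The 4 were Acat2, Mvd, Msmo1 and Cyp51; the other 8, Mvk, Idi1, Fdps, Fdft1, Sqle, Lss, Nsdhl and Stard4, stayed below 0 and were not called (adjusted p = 0.0807 to 0.633). On day −1, 12 of 19 were called without replicates 1, 2 and 3, all lower, with a median of −0.16, and all 19 without replicates 4 and 5, with a median of −0.30. The 7 that were not called in the first of these were Hmgcs1, Idi1, Fdps, Tm7sf2, Nsdhl, Hsd17b7 and Sc5d (adjusted p = 0.116 to 0.958).

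**Figure D3:**
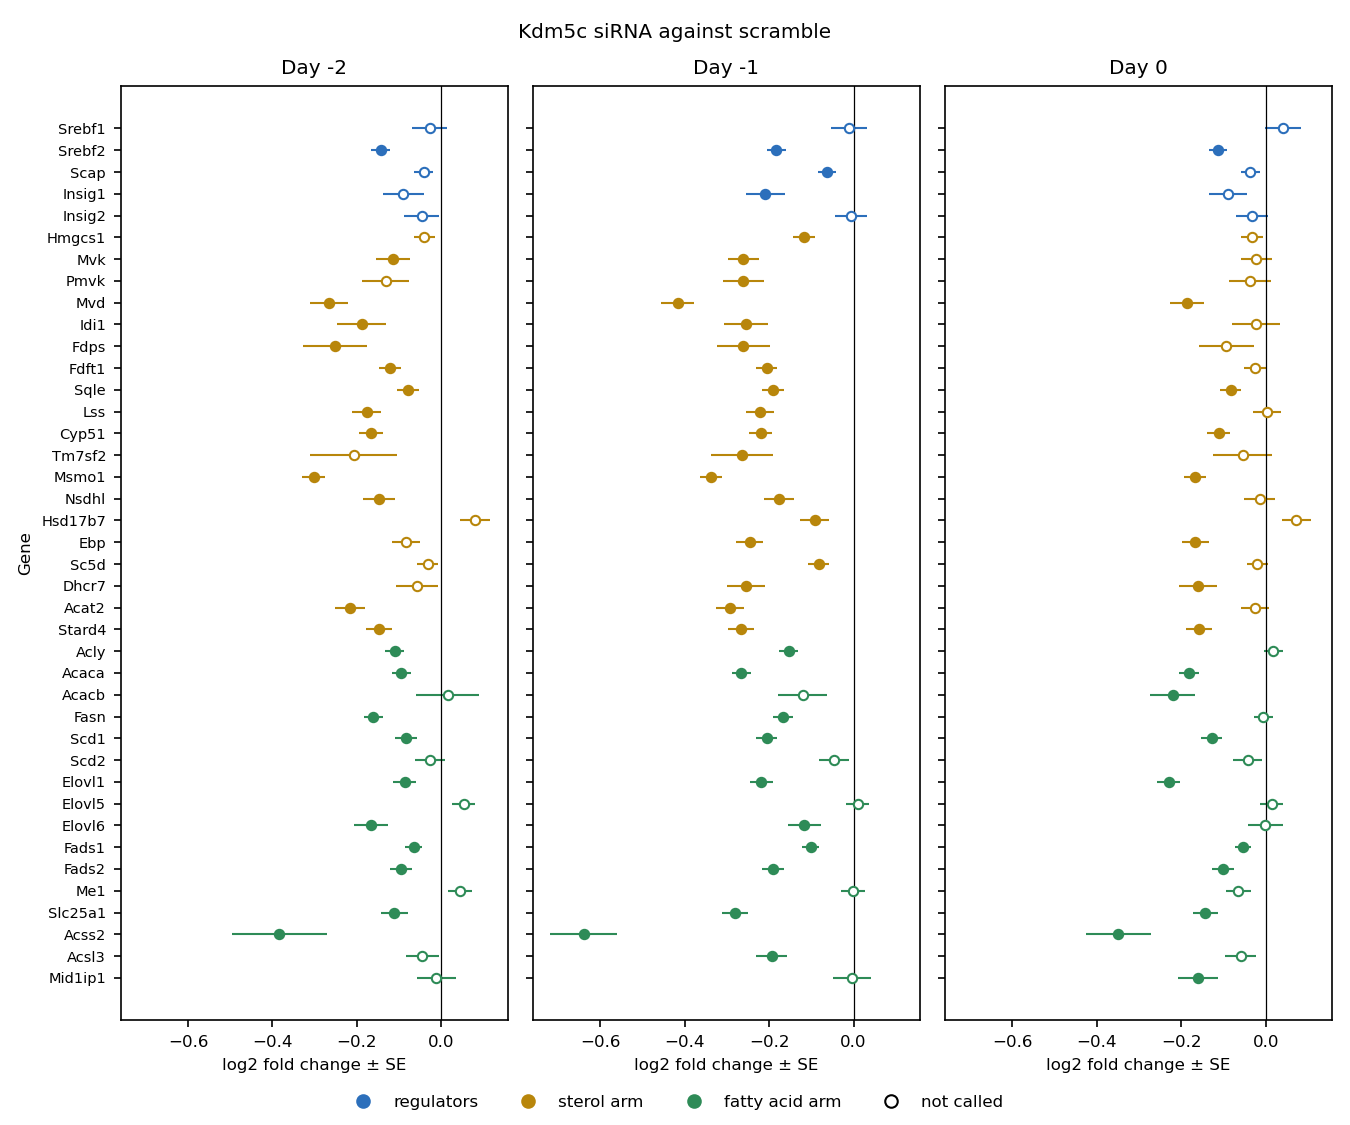
Log2 fold change ± SE of Kdm5c siRNA against scramble (x axis) for each of the 40 genes (y axis), 1 panel per day; filled points are called at an adjusted p under 0.05 and open points are not. On day −1 all 19 sterol points are filled and left of 0, from −0.083 to −0.42, while on day 0 12 of the 19 are open.

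The early steps, from acetyl-CoA to squalene, were at 74.8 to 92.0% of their scramble mean on day −1. Acat2 (ENSMUSG00000023832, chr17:12942890-12960747) fell on days −2 and −1 and not on day 0. On day −2 Acat2 was at 101, 102, 102, 98.3 and 93.7 CPM with scramble and at 86.6, 77.5, 92.5, 85.5 and 84.5 CPM with Kdm5c siRNA. Day −1 gave 162, 159.7, 161, 147 and 149.8 CPM with scramble and 129, 121, 133, 129 and 124 CPM with Kdm5c siRNA. Day 0 gave 116, 106, 113, 107 and 109 and 104, 107, 107, 112 and 110.1 CPM. On the first 2 days each Kdm5c siRNA library was below each scramble library, and on day 0 the groups overlapped. For Acat2 the log2 fold changes were −0.22 (adjusted p = 1.16e-05), −0.29 (adjusted p = 6.29e-09) and −0.026 (adjusted p = 0.596), each with an SE of 0.033 to 0.035.

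Hmgcs1 fell by 0.12 on day −1 (384 ± 15.5 with scramble and 354 ± 11.2 CPM with Kdm5c siRNA, n = 5 each), and was not called on the other days. Mvk and Pmvk, the kinases that phosphorylate mevalonate, both fell by 0.26 on day −1; Mvk also fell on day −2 (−0.12), and neither was called on day 0. The day −2 call of Mvk was lost without scramble replicate 1, 2 or 3 or Kdm5c siRNA replicate 2 (adjusted p = 0.0517 to 0.123).

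Mvd (ENSMUSG00000006517, chr8:122433601-122443422), the decarboxylase of the pathway, had the log2 fold change farthest from 0 in the sterol arm on day −1. On day −2 Mvd was at 43.6, 40.98, 40.5, 36.8 and 37.6 CPM with scramble and at 34.4, 30.3, 33.6, 34.9 and 32.4 CPM with Kdm5c siRNA. On day −1 Mvd was at 87.6, 85.3, 85.1, 80.1 and 78.5 CPM with scramble and at 59.8, 59.98, 65.99, 67.3 and 58.7 CPM with Kdm5c siRNA, and on day 0 at 76.5, 75.3, 79.1, 74.6 and 71.7 CPM with scramble and at 65.8, 65.4, 66.1, 67.8 and 65.6 CPM with Kdm5c siRNA. The groups did not overlap on any day. Mvd gave log2 fold changes of −0.27 (standard error 0.045, edgeR adjusted p = 1.96e-05), −0.42 (standard error 0.039, edgeR adjusted p = 6.82e-11) and −0.19 (standard error 0.040, edgeR adjusted p = 0.000267).

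Idi1, Fdps, for farnesyl diphosphate synthase, and Fdft1, for squalene synthase, fell on days −2 and −1 and were not called on day 0. On day −1 they fell by 0.26, 0.26 and 0.21 on the log2 scale. Fdps was measured at low level (16.8 ± 1.38 CPM with scramble and 13.96 ± 1.06 CPM with Kdm5c siRNA on day −1), and its groups overlapped. Its day −2 call was lost without scramble replicate 2 (adjusted p = 0.0617).

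The later steps, from squalene to cholesterol, include Msmo1 (ENSMUSG00000031604, chr8:64718139-64733792). This gene, for a monooxygenase that acts in the removal of methyl groups from sterols, fell on all 3 days. On day −2 Msmo1 was at 207, 207, 202, 196 and 189 CPM with scramble and at 165, 155, 168, 164 and 159 CPM with Kdm5c siRNA. On day −1 Msmo1 was at 292, 299, 289, 271 and 285 CPM with scramble and at 224, 222, 234, 234 and 220.2 CPM with Kdm5c siRNA, and on day 0 at 264, 251, 266, 251 and 247 CPM with scramble and at 228, 224, 225, 231 and 228 CPM with Kdm5c siRNA. All 5 Kdm5c siRNA libraries were below all 5 scramble libraries on each day. For Msmo1 the log2 fold changes were −0.30 (adjusted p = 7.23e-12), −0.34 (adjusted p = 7.25e-14) and −0.17 (adjusted p = 1.88e-06), with SEs of 0.026 to 0.027.

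Sqle, for squalene epoxidase, and Cyp51, for lanosterol demethylase, also fell on all 3 days. Cyp51 fell by 0.17, 0.22 and 0.11 and Sqle by 0.078, 0.19 and 0.083 on days −2, −1 and 0. The day −2 call of Sqle was lost without scramble replicate 1, 2 or 3 or Kdm5c siRNA replicate 2 (adjusted p = 0.0521 to 0.134). Lss, for lanosterol synthase, and Nsdhl, for a sterol dehydrogenase, fell on days −2 and −1 and were not called on day 0: Lss was at 139.6 ± 5.82 CPM with scramble and 139.6 ± 3.92 CPM with Kdm5c siRNA that day. Ebp, the sterol isomerase gene, and Dhcr7, for the last reductase of the route, were called on days −1 and 0: Ebp fell by 0.25 and 0.17, Dhcr7 by 0.26 and 0.16. Tm7sf2 (−0.26), Sc5d, a sterol desaturase gene (−0.083), and Hsd17b7, a sterol ketoreductase gene (−0.092), were called on day −1 only. Hsd17b7 did not keep its direction: it was at 57.1 ± 1.73 CPM with scramble and 60.1 ± 1.83 CPM with Kdm5c siRNA on day −2 (0.079 on the log2 scale with an SE of 0.036, adjusted p = 0.114), and its day −1 value went to 0.004 (adjusted p = 0.958) without scramble day −1 replicates 1, 2 and 3. Its call was also lost without any 1 of those 3 or of Kdm5c siRNA replicates 1, 2 and 5 (adjusted p = 0.0682 to 0.138).

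Stard4 (ENSMUSG00000024378), whose protein carries cholesterol between membranes, fell on all 3 days, on day −2 only with scramble replicates 1, 2 and 3 in the fit (−0.086, adjusted p = 0.18 without them). On day −2 Stard4 was at 94.3, 95.4, 93.6, 87.3 and 88.8 CPM with scramble and at 82.02, 79.1, 87.1, 83.7 and 81.8 CPM with Kdm5c siRNA. On day −1 Stard4 was at 149, 143, 138, 133 and 135 CPM with scramble and at 114, 115, 119, 115 and 115 CPM with Kdm5c siRNA, and on day 0 at 123, 118, 122, 114 and 116 CPM with scramble and at 106, 99.9969, 103, 111 and 111 CPM with Kdm5c siRNA. No scramble library was as low as the highest Kdm5c siRNA library of its day. For Stard4 the log2 fold changes were −0.15 (adjusted p = 0.000395), −0.27 (adjusted p = 1.41e-09) and −0.16 (adjusted p = 5.67e-05), with SEs of 0.030 to 0.031.

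In the fatty acid arm 10 of 16 genes fell on day −2, 11 on day −1 and 9 on day 0, and none rose. The median log2 fold change was −0.085, −0.16 and −0.083, and the groups did not overlap, with Kdm5c siRNA lower, for 5, 9 and 8 genes. The shares of all genes called lower were 11.8, 16.8 and 15.7%, and those of genes with no overlap 8.75, 11 and 10.7%. On day −2, 2 of 16 were called without scramble replicates 1, 2 and 3 (median −0.058) and 10 without replicates 4 and 5 (median −0.099). The 2 were Acly and Fasn, and the other 8, Acaca, Scd1, Elovl1, Elovl6, Fads1, Fads2, Slc25a1 and Acss2, stayed below 0 and were not called (adjusted p = 0.0945 to 0.486). On day −1, 9 of 16 were called without replicates 1, 2 and 3 (median −0.12), with Elovl6 and Acsl3 lost, and 11 without replicates 4 and 5 (median −0.19). Scd2, Elovl5 and Me1 were not called on any day. Their log2 fold changes lay between −0.065 (Me1, day 0) and 0.053 (Elovl5, day −2), so the most abundant gene of the arm, Scd2, was among those without a call (1795 ± 70.8 CPM with scramble and 1736 ± 52.5 CPM with Kdm5c siRNA on day −1).

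Among the genes that supply acetyl-CoA, Acss2 (ENSMUSG00000027605, chr2:155517948-155585724) had the log2 fold change farthest from 0 of the 40 members on each day; it was singled out after its values were seen. On day −2 Acss2 was at 5.55, 5.92, 6.12, 5.22 and 5.07 CPM with scramble and at 4.43, 4.07, 4.41, 4.53 and 3.88 CPM with Kdm5c siRNA. On day −1 Acss2 was at 21.02, 21.3, 22.8, 15.8 and 17.6 CPM with scramble and at 12.2, 10.7, 15.4, 12.9 and 12.1 CPM with Kdm5c siRNA, and on day 0 at 22.4, 20.6, 21.5, 20.3 and 19.9 CPM with scramble and at 14.99, 16.1, 17.6, 16.2 and 17.3 CPM with Kdm5c siRNA. The groups did not overlap on any day, and scramble replicates 4 and 5 of day −1 were the closest to the Kdm5c siRNA libraries. For Acss2 the log2 fold changes were −0.38 (standard error 0.113, edgeR adjusted p = 0.012), −0.64 (standard error 0.079, edgeR adjusted p = 5.96e-08) and −0.35 (standard error 0.076, edgeR adjusted p = 0.000458). Without scramble replicates 1, 2 and 3 of the day they were −0.27 on day −2 (adjusted p = 0.317) and −0.40 on day −1 (adjusted p = 0.000362), and without replicates 4 and 5 they were −0.45 (adjusted p = 0.0126) and −0.78 (adjusted p = 5.11e-12).

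Slc25a1 (ENSMUSG00000003528, chr16:17925223-17928219), the carrier that brings citrate out of mitochondria, also fell on all 3 days. On day −2 Slc25a1 was at 71.03, 69.3, 75.6, 70.1 and 65.9 CPM with scramble and at 59.9996, 62.4, 66.96, 67.3 and 68.2 CPM with Kdm5c siRNA. On day −1 Slc25a1 was at 120.5, 120.1, 121, 113 and 115 CPM with scramble and at 94.97, 96.1, 101, 99.6 and 93.3 CPM with Kdm5c siRNA, and on day 0 at 115, 116, 115, 115 and 113 CPM with scramble and at 102, 105, 105, 106 and 100.01 CPM with Kdm5c siRNA. Day −2 overlapped and the later days did not. For Slc25a1 the log2 fold changes were −0.11 (adjusted p = 0.0086), −0.28 (adjusted p = 5.2e-10) and −0.14 (adjusted p = 0.000211), with SEs of 0.030 to 0.032. Its day −2 call was lost without scramble replicate 3 (adjusted p = 0.0551) or Kdm5c siRNA replicate 1 (adjusted p = 0.0521). Acly, which splits the exported citrate, fell by 0.11 on day −2 and 0.15 on day −1 and was at 417 ± 13.6 CPM with scramble and 422 ± 3.09 CPM with Kdm5c siRNA on day 0.

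Acaca (ENSMUSG00000020532, chr11:84129672-84401651), for the cytosolic carboxylase that makes malonyl-CoA, fell on all 3 days. On day −2 Acaca was at 102, 103, 104, 105 and 97.2 CPM with scramble and at 98.1, 94.1, 97.3, 92.8 and 94.5 CPM with Kdm5c siRNA. On day −1 Acaca was at 124, 122, 118, 119 and 122 CPM with scramble and at 99.7, 101, 99.7, 103 and 99.7 CPM with Kdm5c siRNA, and on day 0 at 109.8, 109, 112, 106 and 108 CPM with scramble and at 95.3, 97.7, 92.5, 98.5 and 94.9 CPM with Kdm5c siRNA. The groups overlapped on day −2 only. For Acaca the log2 fold changes were −0.095 (adjusted p = 0.00205), −0.27 (adjusted p = 1.71e-12) and −0.18 (adjusted p = 3.27e-08), each with an SE of 0.023. Acacb and Mid1ip1, whose protein promotes polymers of the carboxylases, were called on day 0 only (−0.22 and −0.16). Fasn fell by 0.16 and 0.17 on days −2 and −1, and on day 0 was at 596 ± 17.3 CPM with scramble and 592 ± 6.53 CPM with Kdm5c siRNA.

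Among the enzymes that lengthen and desaturate chains, Elovl1 (ENSMUSG00000006390, chr4:118428093-118432953), an elongase of very long chains, fell on all 3 days. On day −2 Elovl1 was at 85.1, 87.6, 87.6, 85.8 and 85.4 CPM with scramble and at 81.6, 77.3, 83.8, 79.4 and 83.2 CPM with Kdm5c siRNA. On day −1 Elovl1 was at 89.6, 88.5, 87.6, 83.8 and 87.8 CPM with scramble and at 73.4, 73.6, 78.2, 77.2 and 72.7 CPM with Kdm5c siRNA, and on day 0 at 93.5, 87.8, 88.8, 91.5 and 89.9973 CPM with scramble and at 72.7, 76.7, 77.7, 78.2 and 79.1 CPM with Kdm5c siRNA. The groups did not overlap on any day. For Elovl1 the log2 fold changes were −0.087 (adjusted p = 0.0158), −0.22 (adjusted p = 1.55e-08) and −0.23 (adjusted p = 4.87e-09), each with an SE of 0.027. The effects of days −1 and 0 were not told apart (difference −0.011 with an SE of 0.038, adjusted p = 0.918). The day −2 call was lost without Kdm5c siRNA replicate 2 (adjusted p = 0.0669).

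Scd1 (ENSMUSG00000037071, chr19:44394455-44407879), for the desaturase that makes oleate, fell on all 3 days. On day −2 Scd1 was at 208, 210.4, 211, 208 and 194 CPM with scramble and at 193, 189.7, 193, 195 and 199.7 CPM with Kdm5c siRNA. On day −1 Scd1 was at 361, 348, 358, 336 and 343 CPM with scramble and at 298, 300.01, 318, 314 and 282 CPM with Kdm5c siRNA, and on day 0 at 366, 365, 381, 356 and 365 CPM with scramble and at 334, 335, 331, 333 and 341 CPM with Kdm5c siRNA. Scramble replicate 5 was low on day −2 and lay within the Kdm5c siRNA range; the later days did not overlap. For Scd1 the log2 fold changes were −0.083 (adjusted p = 0.0152), −0.21 (adjusted p = 9.17e-09) and −0.13 (adjusted p = 6.9e-05), with SEs of 0.025 to 0.026. The desaturases of polyunsaturated chains, Fads1 and Fads2, fell on all 3 days too, on day −1 by 0.10 and 0.19. Elovl6 fell on days −2 and −1 (−0.17 and −0.12) and Acsl3, an acyl-CoA synthetase gene, on day −1 (−0.19). Of these, Fads1 was not called on day −2 without scramble replicate 3 (adjusted p = 0.0712), nor on day 0 without scramble replicate 2, 4 or 5 or Kdm5c siRNA replicate 3, 4 or 5 (adjusted p = 0.0536 to 0.0941). Elovl6 was not called on day −1 without scramble replicate 1 (adjusted p = 0.065) or Kdm5c siRNA replicate 2 (adjusted p = 0.0686).

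**Figure D4:**
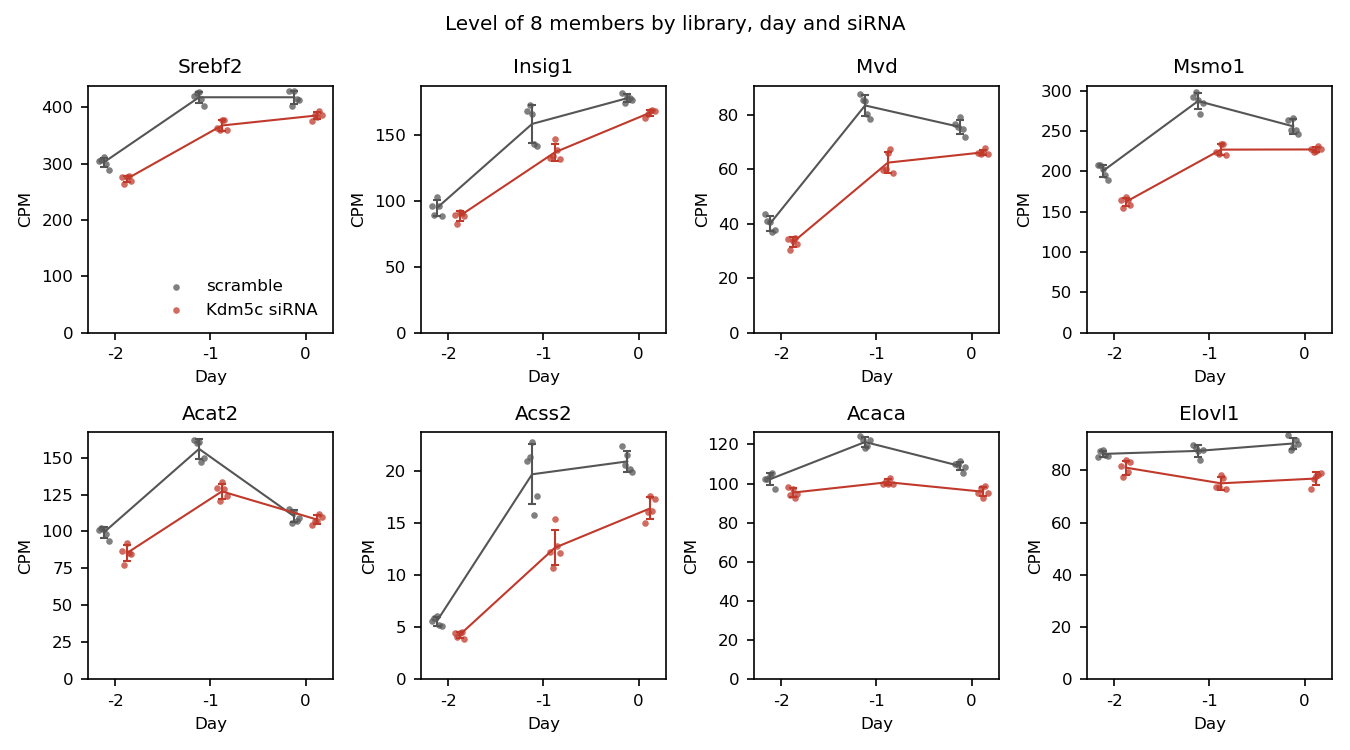
CPM (y axis, from 0) of Srebf2, Insig1, Mvd, Msmo1, Acat2, Acss2, Acaca and Elovl1 by day (x axis); points are libraries, lines join group means and bars are SD over 5 libraries, grey for scramble and red for Kdm5c siRNA. Acat2 is apart on days −2 and −1 and overlaps on day 0, whereas Elovl1 is apart on all 3 days, at 87.8 to 93.5 CPM with scramble and 72.7 to 79.1 CPM with Kdm5c siRNA on day 0.

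The siRNA effects of the days were then compared gene by gene, as the log2 fold change of one day minus that of another. These differences share the libraries of the day they have in common. From day −1 to day 0 the difference was above 0 for all 19 sterol genes, and 8 of the 19 were called higher and none lower, beside 4.12% of all genes called higher, 1.82% lower and 5.94% in all. The 8 were Acat2 (0.27 on the log2 scale with an SE of 0.048, adjusted p = 0.000327), Mvk (0.24), Mvd (0.23), Lss (0.22), Pmvk (0.22), Fdft1 (0.18), Msmo1 (0.17) and Hsd17b7 (0.16). On day 0 only Mvd and Msmo1 of these were called lower. Acat2, Mvk, Pmvk and Fdft1 lay at −0.038 to −0.023 and were not called (edgeR adjusted p = 0.478 to 0.672). Lss (0.003, adjusted p = 0.964) and Hsd17b7 (0.072, adjusted p = 0.0992) were not called either. In the fatty acid arm 3 of 16 were called higher: Acly (0.17), Fasn (0.16) and Slc25a1 (0.14). These counts rest on the scramble libraries of day −1: without replicates 1, 2 and 3 they were 2 sterol genes and 1 fatty acid gene, and without replicates 4 and 5 they were 15 and 7. With single libraries left out, the call was lost for 13 of 20 libraries for Pmvk (adjusted p up to 0.116), 10 for Hsd17b7 (up to 0.0833) and 11 for Slc25a1 (up to 0.0868). Kdm5c RNA was also less reduced on day 0 than on day −1, by 0.42 on the log2 scale; its part in the difference was not tested.

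From day −2 to day −1 all 19 sterol genes were below 0, and 2 were called lower, Hsd17b7 (−0.17) and Ebp (−0.16), beside 1.43% of all genes called lower, 2.19% higher and 3.62% in all. Of the fatty acid arm 4 were called lower, Acaca (−0.17 on the log2 scale with an SE of 0.033, adjusted p = 0.000992), Slc25a1 (−0.17), Elovl1 (−0.13) and Scd1 (−0.12). Without scramble day −1 replicates 1, 2 and 3 no sterol gene and 1 fatty acid gene were called, and without replicates 4 and 5 they were 8 and 7. Without scramble day −2 replicates 1, 2 and 3 they were 6 and 3, and without replicates 4 and 5 of that day 0 and 1. The calls other than that of Acaca were also lost when single libraries were left out, for 2 of 20 libraries for Slc25a1 and for 9 to 12 for the rest, with adjusted p up to 0.107.

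The difference between days 0 and −2 does not use the libraries of day −1 but rests on those of day −2. Here 3 sterol genes were called higher, Acat2 (0.19), Lss (0.18) and Msmo1 (0.13), and 14 of the 19 were above 0. In the fatty acid arm Elovl6 (0.17), Fasn (0.15) and Acly (0.13) were called higher and Elovl1 (−0.14) lower. Over all genes 9.85% were called higher, 5.73% lower and 15.6% in all. Without scramble day −2 replicates 1, 2 and 3 no sterol gene was called and Elovl1 alone of the fatty acid arm, with adjusted p of 0.0576 to 0.42 for the 6 calls lost; without replicates 4 and 5 there were 5 and 4. The Elovl6 call was lost for 11 of 20 single libraries left out (adjusted p up to 0.1). No regulator was called in any of the 3 comparisons of days.

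Genes around the pathway were described from 6 further lists. Over all genes 11.8% were called lower and 11.2% higher on day −2, 16.8 and 18.8% on day −1, and 15.7 and 19.2% on day 0, and a list's counts near these shares are no result about the list. Among 12 measured genes of acetyl-CoA and NADPH supply, 4 fell on day −2, 7 fell and 1 rose on day −1, and 2 fell on day 0. Acat1, for the mitochondrial thiolase, fell on each day (−0.10, −0.28 and −0.21; 99.2 ± 1.57 CPM with scramble and 81.7 ± 1.41 CPM with Kdm5c siRNA on day −1). G6pdx and Pgd, the NADPH-making enzymes of the pentose phosphate pathway, fell on day −1 by 0.21 and 0.19; on day 0 Pgd was called (−0.092) and G6pdx was not (−0.025, adjusted p = 0.475). Aacs, which makes acetoacetyl-CoA from ketone bodies, fell on days −2 and −1 (−0.17 and −0.20) and was at −0.024 on day 0 (adjusted p = 0.583). Without scramble day −2 replicates 1, 2 and 3 none of this list was called on day −2 (Acat1 −0.083, adjusted p = 0.113; Aacs −0.11, adjusted p = 0.0779).

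Among proteins that process SREBPs or degrade their partners the falls were near or below those shares and the rises above them. Of 12 genes, 1 fell and 3 rose on day −2, 1 fell and 5 rose on day −1, and 2 fell and 4 rose on day 0. Erlin1, whose product restrains SREBP activation, rose on all 3 days (0.26, 0.34 and 0.12), from 42.02 ± 3.13 CPM with scramble to 52.9 ± 2.14 CPM with Kdm5c siRNA on day −1. Erlin2, its partner, rose by 0.075, 0.14 and 0.15; its day −2 call was lost without either set of scramble libraries (adjusted p = 0.108 and 0.123). Rnf139, a ubiquitin ligase of the endoplasmic reticulum, fell on each day (−0.18, −0.24 and −0.18), and Paqr3, which tethers SCAP to the Golgi, fell on day 0 (−0.44).

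The isoprenoid branches that leave the sterol route after farnesyl diphosphate had counts near the shares over all genes. Of 13 genes, 1 fell and 2 rose on day −2, 2 fell and 2 rose on day −1, and 1 fell and 3 rose on day 0. Ggps1, for geranylgeranyl diphosphate synthase, rose on all 3 days (0.18, 0.19 and 0.14), while Dhdds, for a dolichol-making enzyme, fell on days −1 and 0 (−0.11 and −0.16). On day −1 the Ggps1 call was lost without scramble replicates 1, 2 and 3 (adjusted p = 0.0766) and the Dhdds call without replicates 4 and 5 (adjusted p = 0.098).

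Other genes of fatty acid elongation, desaturation and activation had counts near or below those shares on days −2 and 0. Of 10 measured genes, none fell and 1 rose on day −2, 3 fell and 3 rose on day −1, and 2 fell and 1 rose on day 0. Hacd2, a dehydratase of the elongation cycle, fell on days −1 and 0 (−0.26 and −0.39), and Acsl1, an acyl-CoA synthetase gene, on day −1 (−0.27), whereas its relative Acsl4 rose that day (0.13). Of 12 genes of sterol uptake, storage and transport, none fell and 2 rose on day −2, 5 fell and 3 rose on day −1, and 5 fell and none rose on day 0. Vldlr, a lipoprotein receptor gene, rose on days −2 and −1 (0.44 and 0.36), and Npc2, which moves cholesterol out of lysosomes, fell on days −1 and 0 (−0.14 and −0.080). Of 8 other lipogenic regulators, 1 fell and 1 rose on day −2, 1 rose on day −1 and 2 rose on day 0; Mlxip, a sugar-responsive factor, rose on day −2 (0.15), and Prkaa1, a catalytic subunit of AMP-activated kinase, rose on days −1 and 0 (0.10 and 0.096). Of the genes named here, Hacd2 (adjusted p = 0.105), Vldlr (adjusted p = 0.0899) and Prkaa1 (adjusted p = 0.214) were not called on day −1 without scramble replicates 1, 2 and 3, nor was Vldlr on day −2 without those of that day (adjusted p = 0.313).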

How the data were processed

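RNA of 30 libraries of 3T3-L1 cells (6 groups of 5) was sequenced from strand-specific mRNA libraries, per the labels' protocols. STAR 2.7.2a, edgeR 3.26.8 and GRCm38 are named in the submitters' processing notes; for the read counter, its use of strand and the annotation, the sources used here give no name. The authors deposited CPM for 55573 genes, whose values were whole reads over the library total, and raw counts for 12016 genes, which each reached 1 CPM in 20 libraries or more. The deposited counts, which were the raw ones despite a name that calls them normalized, held 99.73 to 99.8% of 25217905 to 33725717 reads; a count of 0 allows 3 reads (0.089 to 0.119 CPM), for counting error only. A list of gene names gave symbols for 12010 genes, GENCODE M21 the coordinates and exon lengths, and RefSeq the promoter windows.

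All 30 libraries were fitted with 6 group means in edgeR 4.0.16 (R 4.3.3; quasi-likelihood test, TMM scaling, robust dispersions, 24 residual degrees of freedom), and p-values were adjusted over 12016 genes (Benjamini-Hochberg). SEs are the log2 fold change over the root of F. CPM, their sums and the overlap of groups are as deposited, without TMM scaling, and per kb of merged exons where stated. For scramble, day −1 against day −2, the median log2 fold change of all genes was 0 in the fit. It was 0.07 with limma on log2(CPM + 0.5). The alternatives were DESeq2 1.42.0, limma 3.58.1 on log2(CPM + 0.1, 0.5 or 2), other scalings and filters, only the libraries of a contrast, a replicate block and libraries left out. The script was tested on simulated counts.

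The members, lists and tests were chosen with earlier results of these data known. Values in every library are given for the regulators and, per arm, the 4 members of smallest adjusted p over the 3 siRNA comparisons (plus Acss2), and up to 4 called genes per further list could be named by the same measure.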

Additional observations from a re-analysis of the deposited data

Results flagged for a closer look

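Single libraries stood far from the other 4 of their group for 5 of the 40 members and for 1 summed level, among 258 groups examined. Chance alone gives about 1 in 20, a larger share than was found. Mvd was at 67.8 CPM in Kdm5c siRNA replicate 4 of day 0, with the others at 65.4 to 66.1 CPM. Fdps was at 8.55 CPM in Kdm5c siRNA replicate 3 of day −2, against 7.24 to 7.45 CPM. Acacb was at 12.6 CPM in Kdm5c siRNA replicate 5 of day −1, against 14.6 to 15.3 CPM. Scd1 was at 194 CPM in scramble replicate 5 of day −2, against 208 to 211 CPM. Kdm5c siRNA replicate 2 of day −2 was low for Scd2, at 907 CPM against 1020.0 to 1065 CPM, and for the summed sterol arm, at 1432 CPM.

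The siRNA effect differed between days for several members, by a test of the difference itself (edgeR's quasi-likelihood test on the log2 fold change of the later day minus that of the earlier one). Between days −2 and −1 the difference was −0.17 for Hsd17b7, −0.16 for Ebp, −0.17 for Acaca, −0.12 for Scd1, −0.13 for Elovl1 and −0.17 for Slc25a1. Between days −1 and 0 it was 0.24 for Mvk, 0.22 for Pmvk, 0.23 for Mvd, 0.18 for Fdft1, 0.22 for Lss, 0.17 for Msmo1, 0.16 for Hsd17b7, 0.27 for Acat2, 0.17 for Acly, 0.16 for Fasn and 0.14 for Slc25a1. Between days −2 and 0 it was 0.18 for Lss, 0.13 for Msmo1, 0.19 for Acat2, 0.13 for Acly, 0.15 for Fasn, 0.17 for Elovl6 and −0.14 for Elovl1. The first 2 sets share the libraries of day −1. Of the 40 members 6, 11 and 7 were called in these comparisons, beside 3.62, 5.94 and 15.6% of all genes. The last count is near its share over all genes. Only 1, 3 and 1 of these calls were kept in every setting run.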

How the results depend on the processing

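Other settings left most counts of called members within 1.5 times the value reported. The exceptions below came mostly from leaving out scramble replicates 1, 2 and 3, or 4 and 5, of a day together. These sets were parted by the summed levels of the arms, so leaving 1 out shifts the scramble mean and leaves fewer libraries. What set them apart was not tested. Without replicates 1, 2 and 3 of the day, the 12 sterol and 10 fatty acid genes of day −2 fell to 4 and 2, and the 19 sterol genes of day −1 to 12, where Hsd17b7 turned to 0.004. For the difference between days −2 and −1, where 2 sterol genes were called, there was 1 with each limma setting (pseudocounts 0.1, 0.5 and 2) and with only the libraries of the contrast. Without scramble day −1 replicates 1, 2 and 3 there were 0 and without 4 and 5 there were 8; for the 4 fatty acid genes these gave 1 and 7. Without scramble day −2 replicates 1, 2 and 3 there were 6 sterol genes, and without 4 and 5 there were 0, with 1 fatty acid gene. For the difference between days −1 and 0 the day −1 sets gave 2 and 15 sterol genes, against 8, and 1 and 7 fatty acid genes, against 3. For the difference between days −2 and 0 the day −2 sets gave 0 and 5 sterol genes, against 3, and the first gave 1 fatty acid gene, against 4.

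Leaving out single replicates gave 9 to 13 sterol and 8 to 10 fatty acid genes on day −2, 18 to 19 and 10 to 11 on day −1, and 7 to 8 and 8 to 10 on day 0. In the scramble steps the ranges were 19 to 19 and 13 to 14 from day −2 to day −1, and 11 to 13 and 12 to 14 from day −1 to day 0. For the differences between days they were 0 to 4 sterol and 1 to 5 fatty acid genes (days −2 and −1), 6 to 11 and 2 to 5 (days −1 and 0), and 3 to 5 and 3 to 5 (days −2 and 0).

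Of the members called, 7 of 23 on day −2, 22 of 33 on day −1 and 16 of 17 on day 0 kept their call in every setting run. Sets of scramble libraries were left out together for days −2 and −1 but not for day 0. These counts thus rest on unlike settings and do not rank the days. Over all genes of the count table, the deviations of same-numbered libraries correlated at −0.01 on average over 75 pairs (−0.34 to 0.33). This average does not test pairing in the levels of the arms, where scramble libraries parted by the same replicate numbers on days −2 and −1. With the replicate number as a block the sterol counts were 12, 19 and 7 and the fatty acid counts 10, 11 and 9 on days −2, −1 and 0. The scalings run moved the median of all genes by at most 0.07 on the log2 scale and turned the sign of no siRNA median of an arm. SEs were largest for Acss2, Tm7sf2 and Fdps; the part of depth in them was not tested.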
